A study of Mus musculus with 27 samples.

Results

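The comparison set retinal ganglion cells labelled as Ptpn2 knockout and given interferon gamma (IFNγ) against wild-type cells given PBS, the baseline of the optic nerve experiment. Its members were the 6 libraries whose labels give these genotypes and treatments, 3 in each group, out of 12 retinal libraries and 27 libraries in the series, and all 55367 named genes of the retinal count table. Retinal ganglion cells are the neurons whose axons form the optic nerve. Mice with a floxed Ptpn2 gene received an adeno-associated virus (AAV) in the eye 2 weeks before optic nerve injury, carrying Cre in the knockout and GFP in the wild type, so both groups carried the floxed allele and a virus. Both groups were injured, IFNγ or PBS was given to the eye directly afterwards, and cells were collected 3 days after injury and amplified by Smart-seq2, an oligo-dT method for single cells. The other retinal groups, of 3 libraries each, were wild type with IFNγ and knockout with PBS. The sources used here do not give the age of the mice, the promoter driving Cre, the number of cells in a library or whether replicates came from separate mice. The p-values below therefore measure only the spread between these libraries, which may be technical.

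IFNγ binds a receptor whose Janus kinases phosphorylate transcription factors of the STAT family, which activate genes through a palindromic element called GAS. Interferon regulatory factors and the ISGF3 complex act on a related element, the ISRE. The induced genes include guanylate-binding proteins, immunity-related GTPases, antiviral proteins and the machinery that cuts peptides and presents them on MHC class I molecules. Ptpn2 encodes a tyrosine phosphatase that removes phosphate from Janus kinases and STATs and so dampens this pathway. Neurons express MHC class I genes at low levels at rest, and in retinal ganglion cells JAK-STAT signalling has been studied for its role in axon regrowth.

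The data show interferon effector genes above baseline in the libraries labelled knockout with IFNγ. A gene is called here when the Benjamini-Hochberg adjusted p of edgeR's quasi-likelihood test was under 0.05 over 13487 tested genes. Of these, 6 were called higher (0.0445%) and 1 was called lower (0.00741%). The higher genes were Gbp6, Psmb9, Oasl2, Tap1 and B2m, which belong to the interferon response, and Camk2a, which encodes a calcium/calmodulin-dependent kinase subunit. On GRCm38, Gbp6 lies at chr5:105270702-105293698 and Oasl2 at chr5:114896936-114912234, Psmb9 at chr17:34181987-34187764 beside Tap1 at chr17:34187553-34197225, and B2m at chr2:122147686-122153083. The lower gene was Rpl5, at chr5:107900502-107909005, which encodes a protein of the large ribosomal subunit. Without adjustment, 1058 genes had a p under 0.05, 565 of them higher and 493 lower. The calls were not all kept when single libraries were left out. None was made without knockout with IFNγ replicate 1, without wild type with PBS replicate 1 or without wild type with PBS replicate 3. Fits that left out 1 of the 6 libraries had fewer libraries and tested 14747 to 14807 genes. What removed the calls was not tested. Without knockout with IFNγ replicates 2 and 3, 3 and 5 genes were called higher, without wild type with PBS replicate 2 there were 2, and Rpl5 was not called in any of these fits. Fitting only these 6 libraries also gave 0 calls, with 776 genes at an unadjusted p under 0.05, while DESeq2 called 250 genes higher and 103 lower, including all 7.

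**Figure D1:**
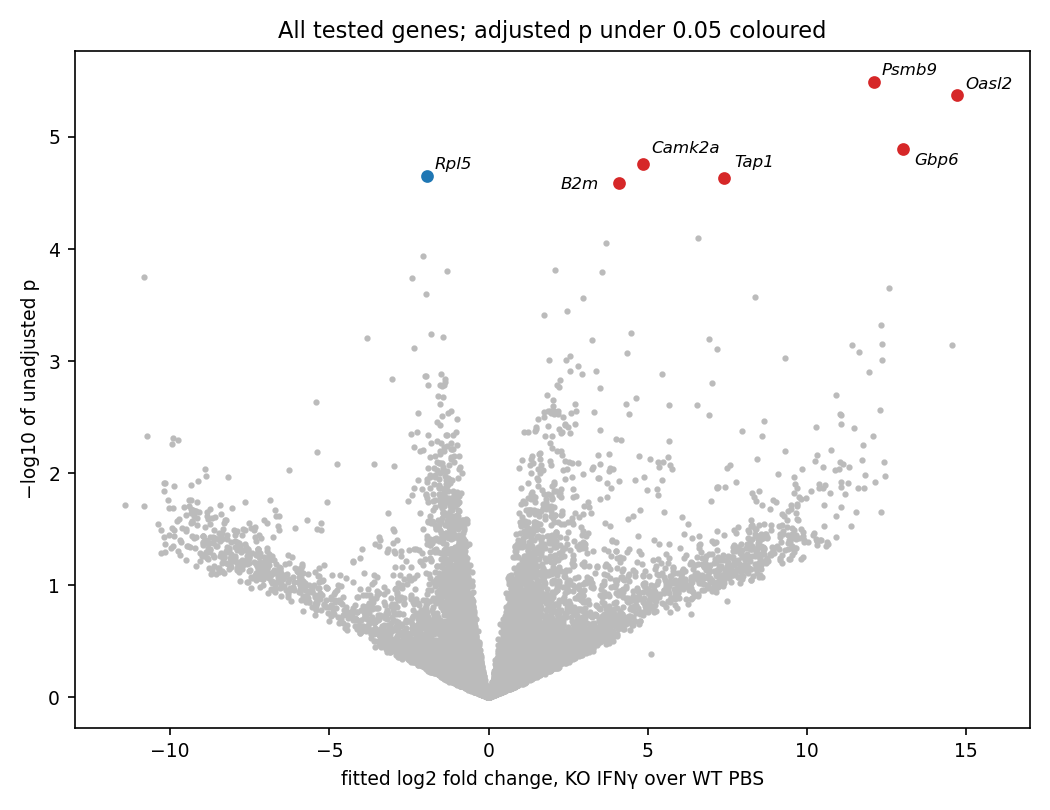
Fitted log2 fold change (horizontal axis, KO IFNγ, labelled knockout with IFNγ, over WT PBS, wild type with PBS) and −log10 of the unadjusted p (vertical axis) of each of 13487 tested genes. The 6 genes called higher are red and Rpl5, called lower, is blue. Genes far to the right include those with 0 counts at baseline, such as Gbp6, whose fitted values depend on the prior count.

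The 6 libraries held between 13239988 and 17122057 counts in named genes and 13058 to 13866 detected genes. A single ribosomal sequence entry took 23.5% to 34.0% of their counts and mitochondrial genes 2.17% to 3.71%. Levels are given in CPM, counts scaled to a common library size with TMM factors. The floor set for a count of 0, taken as 3 counts, was 0.175 to 0.286 CPM. Any count above 0 was taken as detected. Of the tested genes, 4847 (35.9%) had 0 counts in at least 1 of the 6 libraries. The biological coefficient of variation was 1.27, and genes with large fitted fold changes missed the threshold. As a measure free of the fit, genes are also counted as wholly above when all 3 libraries labelled knockout with IFNγ exceeded all 3 wild-type PBS libraries, which held for 984 tested genes (7.3%), and as wholly below in the reverse case, which held for 883 (6.55%). Genes wholly above or below are named because of these values, with no test, and the named genes passed the test only where an adjusted p under 0.05 is given.

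Ptpn2, the targeted gene, was not lower in the libraries labelled knockout. It measured 15.4, 0 and 23.8 CPM with IFNγ, against 10.5, 7.24 and 3.38 CPM in wild type with PBS, and 10.1, 8.04 and 7.68 CPM in the knockout with PBS. The fitted difference from baseline was 0.89 ± 1.90 on the log2 scale (SE; edgeR adjusted p = 1), and the groups overlapped. The sources used here do not give which exons the floxed allele removes, and counts over the whole gene do not check a deletion of some exons. The genotype is therefore given as the label states it, and the directions below rest on that label.

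Ganglion cell markers were present in both groups at overlapping summed levels. Of 20 ganglion cell markers, 19 were tested, the median log2 fold change was 0.09 against 0.05 over all tested genes, and the summed level of the list was 6149.6 to 14737 CPM with IFNγ in the knockout and 7111 to 9488 CPM at baseline. Rbpms, an RNA-binding protein that marks ganglion cells, measured 198, 276 and 131 CPM in the knockout with IFNγ and 87.6, 103 and 201 CPM at baseline, which overlap. Sncg, gamma-synuclein, measured 3084, 3653 and 1719 CPM against 926, 1232 and 2982 CPM and overlapped as well. The marker Tubb3, a neuronal beta-tubulin, was wholly above and is described with the axon genes.

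Sequences at the start of interferon genes are shown because GAS and ISRE are the elements on which this pathway acts. The start regions, from RefSeq on GRCm38.p6, run from 250 bases before to 50 bases after the start of transcription. They were searched on both strands for a GAS core, TTCNNNGAA, which reads the same on both strands, and an ISRE core, TTTC and TTTC with any 2 bases between them, or GAAA and GAAA on the other strand. The motifs can overlap. Of 27025 genes with a start region, 9.55% held a GAS core, 3.99% an ISRE core and 12.9% either. Among the guanylate-binding, immunity-related GTPase, antiviral, MHC class I and immunoproteasome lists, 48 of 61 tested genes had a start region, and 25 of the 48 (52.1%) held either core. Of the 36 of these genes that were wholly above, 32 had a start region and 18 (56.2%) held either core. A match describes letters in this window and no match says only that these letters are not there. B2m, Irgm1, Igtp and Ifit2 are shown because they hold a core. They are the named interferon genes of smallest p that do, so their cores are no finding. The capitals below mark the cores.
B2m (chr2:122147437-122147736, plus strand): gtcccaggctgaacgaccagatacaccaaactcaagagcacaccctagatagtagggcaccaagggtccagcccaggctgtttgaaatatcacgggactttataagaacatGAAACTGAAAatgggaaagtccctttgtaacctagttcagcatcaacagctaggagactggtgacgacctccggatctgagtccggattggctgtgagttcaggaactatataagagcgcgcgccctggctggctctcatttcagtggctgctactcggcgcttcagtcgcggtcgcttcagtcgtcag
Irgm1 (chr11:48871371-48871670, minus strand): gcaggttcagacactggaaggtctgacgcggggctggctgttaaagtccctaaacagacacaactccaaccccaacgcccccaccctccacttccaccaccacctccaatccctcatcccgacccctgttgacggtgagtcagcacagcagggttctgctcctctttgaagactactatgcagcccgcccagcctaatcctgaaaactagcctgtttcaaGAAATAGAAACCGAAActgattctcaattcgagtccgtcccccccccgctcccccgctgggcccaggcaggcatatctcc
Igtp (chr11:58199306-58199605, plus strand): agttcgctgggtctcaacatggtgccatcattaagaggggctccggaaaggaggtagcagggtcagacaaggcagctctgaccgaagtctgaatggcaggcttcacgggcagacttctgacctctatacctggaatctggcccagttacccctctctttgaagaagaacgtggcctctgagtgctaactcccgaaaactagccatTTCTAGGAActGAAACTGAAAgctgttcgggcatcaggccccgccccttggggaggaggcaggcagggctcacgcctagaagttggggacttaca
Ifit2 (chr19:34550444-34550743, plus strand): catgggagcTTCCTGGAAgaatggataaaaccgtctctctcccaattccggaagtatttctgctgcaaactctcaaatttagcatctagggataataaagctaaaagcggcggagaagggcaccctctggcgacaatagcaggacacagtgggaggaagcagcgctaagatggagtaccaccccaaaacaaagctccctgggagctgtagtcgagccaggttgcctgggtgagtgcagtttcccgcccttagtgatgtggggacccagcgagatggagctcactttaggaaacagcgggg
Psmb9 (chr17:34187281-34187580, minus strand): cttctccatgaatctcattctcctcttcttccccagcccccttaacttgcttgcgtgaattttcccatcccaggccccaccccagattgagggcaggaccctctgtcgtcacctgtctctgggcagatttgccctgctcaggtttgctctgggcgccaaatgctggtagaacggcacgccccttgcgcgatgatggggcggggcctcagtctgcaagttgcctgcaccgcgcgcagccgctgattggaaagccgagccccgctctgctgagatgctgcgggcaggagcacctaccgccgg
B2m had an ISRE core whose first base lay 139 bases upstream of the start. Irgm1 had 2 overlapping ISRE cores, 30 and 24 bases upstream. Igtp had a GAS core 45 and an ISRE core 34 bases upstream. Ifit2 had a GAS core 241 bases upstream. Psmb9 held neither core and is shown, chosen after its values were seen, because its window overlaps that of Tap1. The Psmb9 window on the minus strand overlaps the Tap1 window (chr17:34187306-34187605, plus strand) by 275 bases. These 2 genes, both called higher, thus start in opposite directions from 1 region. The Tap1 window held neither core either. Among the called interferon genes, a core was found only in B2m, and Gbp6 had no start region to search.

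Guanylate-binding proteins are large GTPases that act against intracellular pathogens and are among the genes IFNγ induces most. All 11 members of the list had 0 counts in all 3 wild-type PBS libraries, while 8, 7 and 5 of them were detected in the 3 libraries labelled knockout with IFNγ. Of 6 members that passed the filter on low counts, 1 was called, 4 were wholly above and none was wholly below. Over all tested genes, 0.0445% were called higher, 7.3% were wholly above and 6.55% wholly below. Gbp6 measured 121, 19.6 and 65.3 CPM in the knockout with IFNγ against 0, 0 and 0 CPM. Its group mean was at least 302-fold higher with the baseline set to the floor of 3 counts per library (edgeR adjusted p = 0.0496). Each fold given as at least, here and below, compares group means with the group at 0 set to that floor. Single libraries can lie under it. The groups were far apart, with replicate 2 lowest among the treated. Gbp7 measured 77.5, 29.7 and 15.8 CPM, at least 180-fold higher, without passing the test (edgeR adjusted p = 0.437). Gbp3 measured 22.5, 28.7 and 15.6 CPM and Gbp2 56.5, 21.5 and 8.93 CPM, each wholly above. Gbp9 was high in 1 library only, with 61.3, 0.0641 and 0 CPM. Because several of these genes are near-identical in sequence, reads may have been split among them, and single members are uncertain.

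Immunity-related GTPases, a family of small GTPases that attack pathogen vacuoles, were also low at baseline. Of 8 members, 6 passed the filter on low counts, none was called, and 5 were wholly above, beside 7.3% of all tested genes. Irgm1, which regulates the other members, measured 102, 67.6 and 57.4 CPM against 1.81, 0.467 and 0.147 CPM, a log2 fold change of 6.57 ± 1.19 (SE; edgeR adjusted p = 0.132). Igtp, also called Irgm3, measured 161, 146 and 221 CPM against 0, 9.86 and 0.0735 CPM (5.71 ± 1.86; edgeR adjusted p = 0.541). Both were separated from baseline in every library, and Igtp at baseline was detected mainly in replicate 2. Irgm2 measured 53.9, 13.01 and 10.9 CPM against 0 in each wild-type PBS library, at least 114-fold higher. The spans of Igtp (chr11:58199556-58207591) and Irgm2 (chr11:58199618-58222782) overlap on the plus strand. Reads may have been split between these genes or left out, so their single values are uncertain. Tgtp1 was wholly above only just, with 14.1, 0.0641 and 3.62 CPM against 0.

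Antiviral effectors bind or degrade viral RNA and proteins or amplify their sensing. Of 39 members, 26 passed the filter, 1 was called higher, 11 were wholly above, none was wholly below, and 15 overlapped. The shares over all tested genes were 0.0445% called higher, 7.3% wholly above and 6.55% wholly below. Oasl2, an oligoadenylate synthetase-like protein, measured 242, 117 and 306 CPM in the knockout with IFNγ and 0 in each wild-type PBS library, at least 975-fold higher (edgeR adjusted p = 0.0285). Ifit2, which binds foreign RNA, measured 1519, 376 and 116 CPM against 39.0, 60.3 and 12.1 CPM, with a log2 fold change of 4.17 ± 1.25 (SE) that missed the test (edgeR adjusted p = 0.502). Its treated libraries spanned a wide range and still lay above every baseline library. Ifit1, of the same family, measured 404, 185 and 8.93 CPM against 0, at least 878-fold higher, and Xaf1, a pro-apoptotic partner of XIAP, measured 51.7, 42.7 and 42.4 CPM against 0, 0 and 1.03 CPM. Lgals3bp, a secreted glycoprotein, measured 473, 134 and 53.0 CPM against 9.63, 20.2 and 0.882 CPM. Several well-known members were high in a single library. Rsad2, or viperin, measured 126, 0.192 and 0 CPM, and Ifi44 57.7, 0 and 0 CPM. Isg15, the ubiquitin-like modifier, stayed low at 0.734, 5.51 and 0.0603 CPM against 0 and did not pass the filter on low counts.

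**Figure D2:**
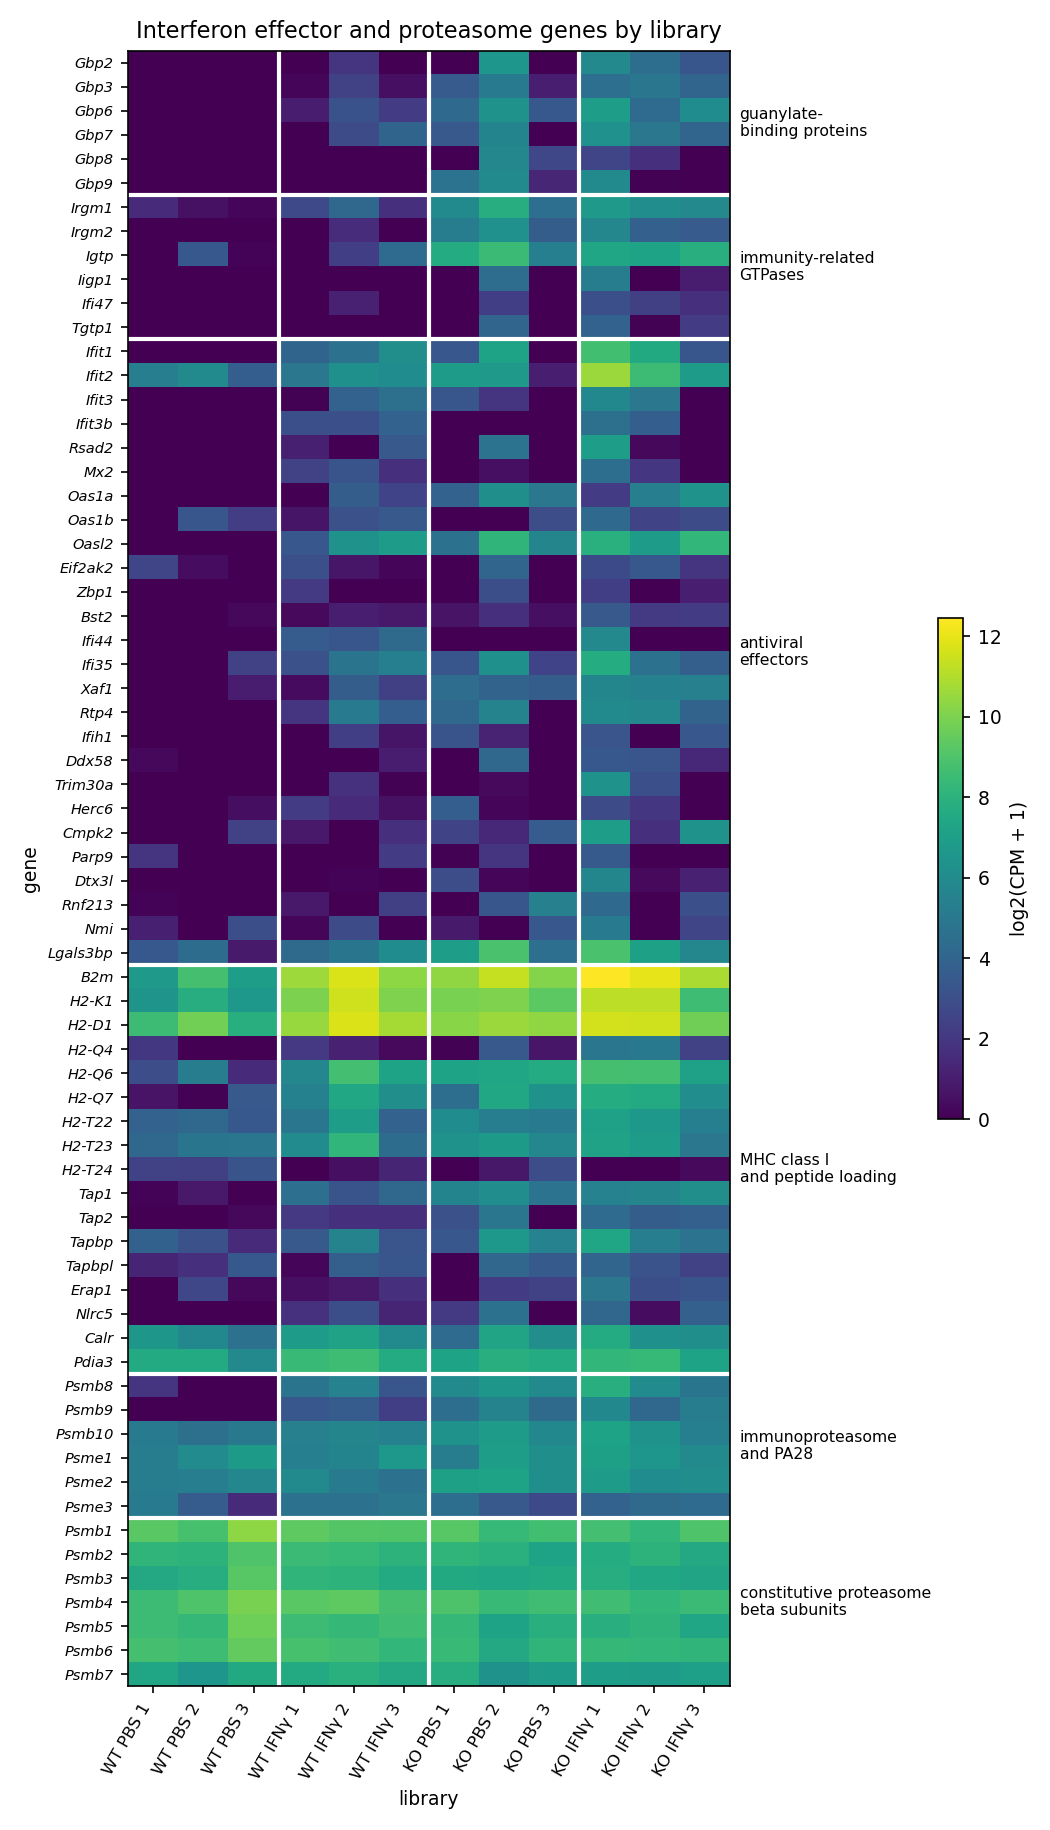
Level of each tested gene (rows, log2(CPM + 1) as colour) in the 12 retinal libraries (columns; WT wild type, KO labelled knockout) for 5 interferon effector lists and the constitutive proteasome beta subunits. The 3 WT PBS columns are dark over most interferon genes, the 3 KO IFNγ columns are brighter, and the constitutive subunits at the bottom are bright in all 12.

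MHC class I molecules show peptides from inside the cell at its surface, and this list had all 17 members tested. Of these, 2 were called higher, 12 were wholly above and 1 was wholly below, with a median log2 fold change of 3.28. Among all tested genes, 0.0445% were called higher, 7.3% were wholly above and 6.55% wholly below, and the median was 0.05. B2m, the light chain shared by all class I molecules, measured 5591, 4072 and 1866 CPM against 102, 444 and 124 CPM, a log2 fold change of 4.10 ± 0.66 (SE; edgeR adjusted p = 0.0496). Tap1, a subunit of the peptide transporter, measured 45.1, 50.3 and 69.6 CPM against 0.0953, 0.817 and 0 CPM (7.40 ± 1.19; edgeR adjusted p = 0.0496). The treated Tap1 libraries were tight and the baseline libraries were at or near 0. The heavy chain H2-K1 measured 2403, 2334 and 387 CPM against 87.1, 212 and 99.8 CPM (3.68 ± 0.67; edgeR adjusted p = 0.132), and H2-D1 3138, 3040 and 865 CPM against 372, 891 and 221 CPM, where replicate 3 of the treated fell inside the baseline range. Tap2, the other transporter subunit, measured 19.4, 11.9 and 13.3 CPM against 0, 0 and 0.221 CPM. From 3 counts at baseline, its ratio was 199 with an exact 95% counting interval of 67.7 to 967, which covers counting error only. Nlrc5, the class I transactivator, was wholly above, at 16.5, 0.320 and 13.1 CPM against 0. The member wholly below was H2-T24, a nonclassical class I gene, at 0, 0 and 0.241 CPM against 4.58, 4.09 and 8.53 CPM. The H2-Q and H2-T genes resemble each other closely, so their single values are uncertain.

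The immunoproteasome replaces catalytic subunits of the standard proteasome and yields peptides suited to class I molecules. The list also held Psme1, Psme2 and Psme3, the genes of the proteasome activator PA28. All 6 members were tested, 1 was called higher and 4, Psme2 among them, were wholly above, while Psme1 and Psme3 overlapped. Over all tested genes, 0.0445% were called higher and 7.3% were wholly above. Psmb9 measured 54.7, 16.9 and 36.1 CPM in the knockout with IFNγ against 0 in each wild-type PBS library, at least 158-fold higher (edgeR adjusted p = 0.0285). Psmb8 measured 234, 63.8 and 27.2 CPM against 2.77, 0 and 0 CPM (6.92 ± 1.58; edgeR adjusted p = 0.311), and Psmb10 147, 79.3 and 41.1 CPM against 33.0, 23.1 and 32.2 CPM. All 3 catalytic subunits were thus wholly above. Of the 7 constitutive beta subunits, none was called, 3 were wholly below and 4 overlapped, with a median log2 fold change of -0.82. Wholly below held for 6.55% of all tested genes. Their summed level was 1895, 1717 and 1789 CPM against 2423, 2226 and 5118 CPM, with wild-type replicate 3 far above the other baseline libraries. Psmb5, which Psmb8 replaces, measured 220, 274 and 157 CPM against 365, 315 and 845 CPM (-1.23 ± 0.42; edgeR adjusted p = 0.573), and the highest baseline library was replicate 3.

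**Figure D3:**
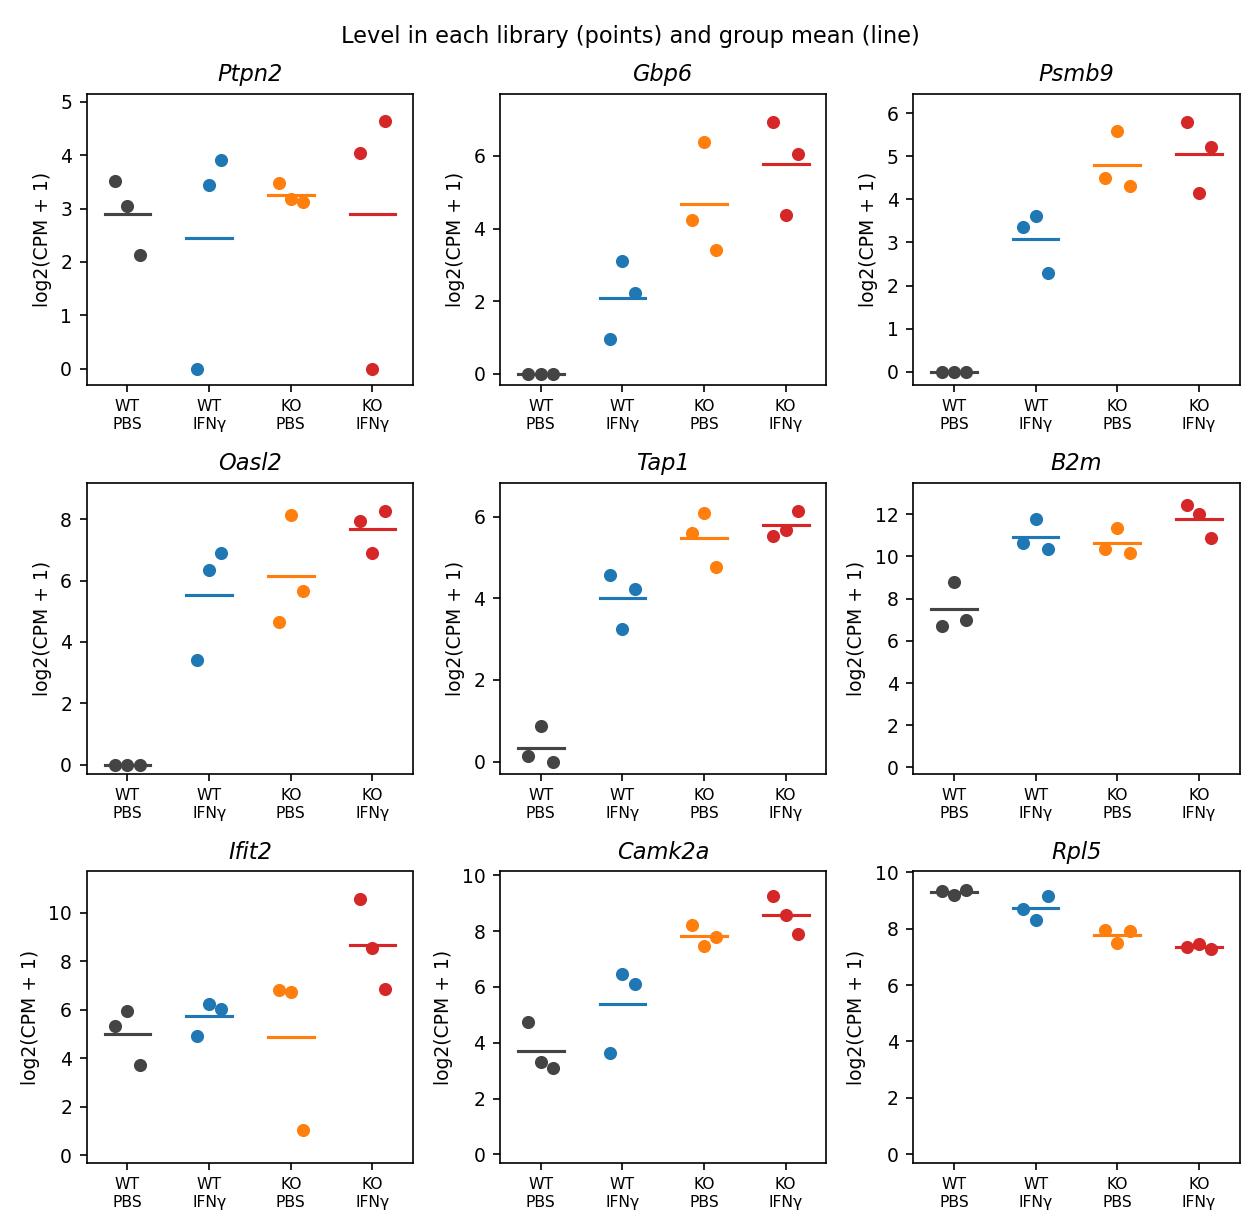
Level of Ptpn2 and 8 other genes in each of the 12 retinal libraries as log2(CPM + 1), with the group mean of the log2 values as a line; WT is wild type and KO labelled knockout. The 5 called interferon genes are at or near their lowest in WT PBS, Ptpn2 overlaps across all 4 groups, and Rpl5 is lowest in KO IFNγ.

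Over these 5 interferon effector lists together, 36 of 61 tested genes were wholly above (59.0%, beside 7.3% of all tested genes) and 1 was wholly below. Counted over all 81 members, tested or not, 37 were wholly above. No share over all named genes was counted to set beside it. The number of the 81 detected was 28, 24 and 31 in the wild-type PBS libraries and 70, 60 and 56 in the libraries labelled knockout with IFNγ. The filter kept genes for their level in any of the 4 groups, so a member at 0 at baseline could pass only through the groups where it was high. Fitted log2 values of such genes depend on edgeR's prior count. With genes at 0 in 1 group set to the bound from the floor, the list medians were 6.80 for guanylate-binding proteins, 5.77 for immunity-related GTPases and 5.95 for antiviral effectors, against fitted medians of 11.6, 9.32 and 7.76.

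Upstream of these effectors, no signalling gene was called. Of 14 receptors, kinases and STATs, 13 were tested and 2 were wholly above, beside 7.3% of all tested genes. Stat3, the factor of gp130 cytokine signalling, measured 113, 70.0 and 107 CPM against 17.6, 19.3 and 18.2 CPM (2.40 ± 0.82; edgeR adjusted p = 0.573). Jak2 measured 62.9, 14.7 and 9.23 CPM against 4.10, 1.05 and 1.91 CPM. The receptor chain Ifngr2 measured 139, 40.1 and 84.4 CPM against 90.1, 85.9 and 46.8 CPM and overlapped fully. Among 9 interferon regulatory factors, 5 were tested, none was called and 3 were wholly above. Irf9, which joins STATs in ISGF3, measured 57.7, 101.1 and 64.0 CPM against 9.53, 11.6 and 2.43 CPM (3.24 ± 0.74; edgeR adjusted p = 0.311). Irf1, an early target of interferon signalling, measured 13.05, 4.68 and 35.6 CPM against 0, at least 78.2-fold higher.

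Of the 10 negative regulators of JAK-STAT signalling, Ptpn2 among them, 9 were tested, none was called, 2 were wholly above and 1 was wholly below. The shares over all tested genes were 7.3% and 6.55%. Socs3, which inhibits Janus kinases bound to gp130, measured 4.57, 4.55 and 9.77 CPM against 0, at least 27.7-fold higher. Usp18, a brake on type I interferon receptors, measured 70.2, 45.2 and 22.9 CPM against 4.005, 0 and 3.45 CPM. Both were low at baseline in all 3 libraries. Ptpn11, the phosphatase SHP2, was wholly below, at 44.6, 32.4 and 25.7 CPM against 55.2, 82.9 and 71.1 CPM (-1.03 ± 0.50; edgeR adjusted p = 0.629). Socs1, the usual feedback inhibitor of IFNγ signalling, measured 25.04, 2.69 and 32.9 CPM against 4.58, 8.23 and 8.16 CPM and overlapped.

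**Figure D4:**
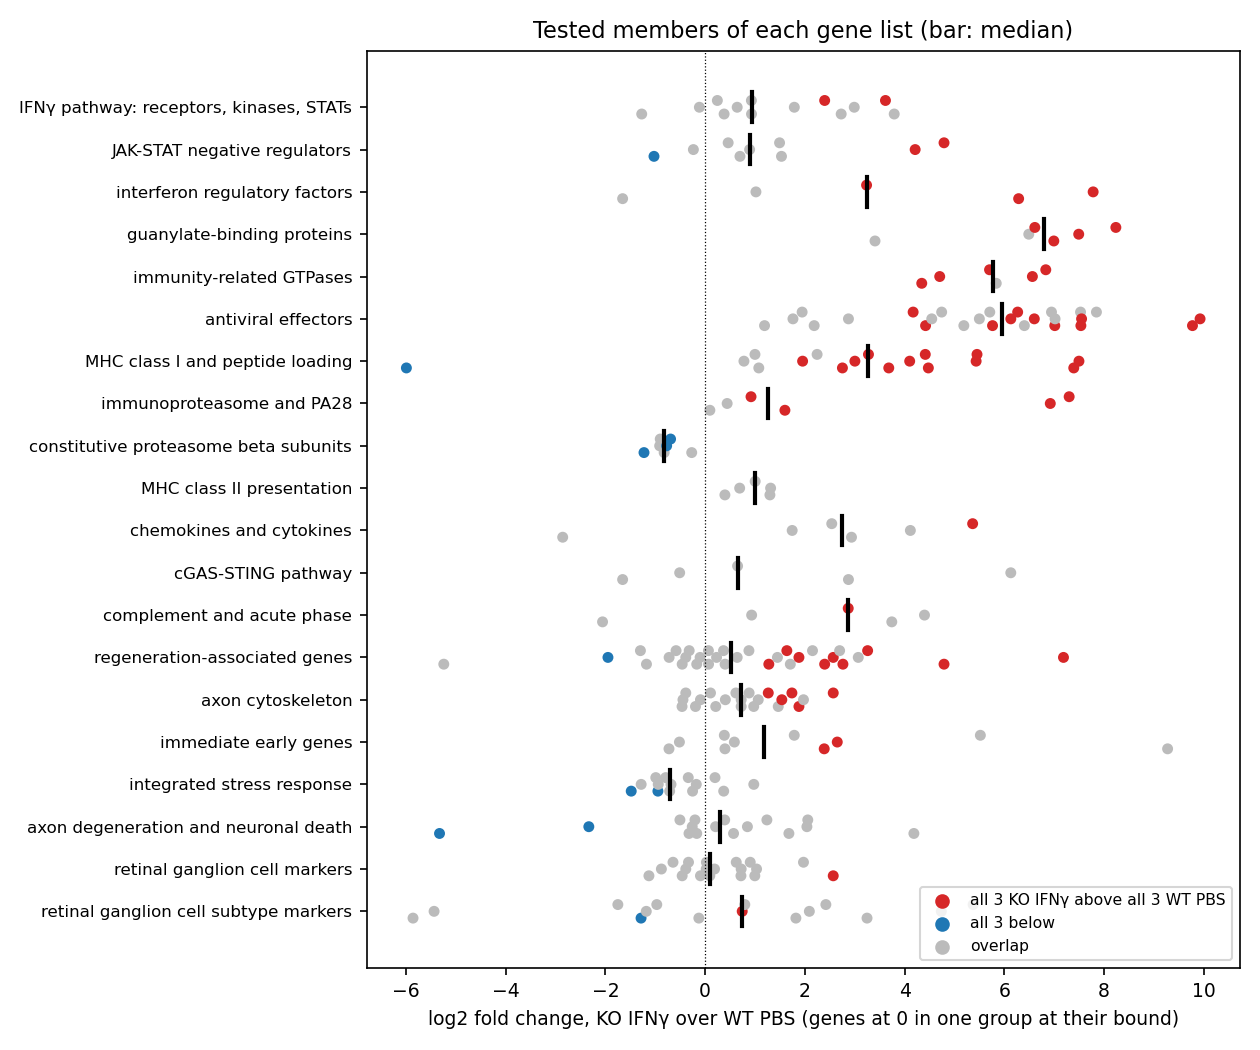
Each point is a tested member of a gene list, placed by its log2 fold change of KO IFNγ (labelled knockout) over WT PBS (horizontal axis; genes at 0 in 1 group stand at their bound), and black bars are list medians. Red points are wholly above, blue wholly below and grey overlap; red is dense in the guanylate-binding, immunity-related GTPase, antiviral and MHC class I rows, and blue stands among the constitutive proteasome subunits, at -0.82 in the median.

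Few of the secreted products of interferon signalling were tested. Of 20 chemokines and cytokines, 6 were tested, and 8 had 0 counts in all 6 libraries, Cxcl10 and Ccl2 among them. A count of 0 allows a level up to the floor of 0.175 to 0.286 CPM, for counting error only. The member wholly above was Cd274, the checkpoint ligand PD-L1, at 74.5, 63.6 and 24.8 CPM against 4.005, 0 and 0 CPM (5.37 ± 1.76; edgeR adjusted p = 0.541). Of 8 genes of MHC class II presentation, 5 were tested, none was called and all 5 overlapped. H2-Ab1, a class II beta chain, measured 7.99, 10.8 and 5.67 CPM against 4.20, 1.69 and 6.32 CPM. Of 10 genes of the cGAS-STING pathway, which senses DNA in the cytosol, 5 were tested and all overlapped, while Cgas and Sting1 themselves had 0 counts in all 6 libraries. Of 14 complement and acute phase genes, 5 were tested, and Serping1, the C1 inhibitor, was wholly above at 79.6, 64.7 and 24.4 CPM against 9.44, 13.6 and 0 CPM. Wholly above held for 7.3% of all tested genes. Serpina3n was high in 1 library, at 1426, 24.6 and 6.82 CPM against 0, 37.6 and 31.2 CPM.

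Genes known from axon regrowth lay on both sides of baseline, and none was called. Of 36 regeneration-associated genes, 32 were tested, 9 were wholly above and 1 was wholly below, with a median log2 fold change of 0.52. Over all tested genes, 7.3% were wholly above and 6.55% wholly below. Gal, the neuropeptide galanin, measured 1013, 2146 and 38.1 CPM against 2.00, 5.43 and 14.4 CPM (7.19 ± 1.68; edgeR adjusted p = 0.321). Replicate 3 of the treated stood far below the other two and still above baseline. Lifr, a receptor of leukaemia inhibitory factor, measured 71.4, 48.5 and 11.9 CPM against 4.86, 7.82 and 6.69 CPM. Smad1, a factor of BMP signalling, measured 52.5, 19.4 and 14.5 CPM against 6.48, 9.16 and 12.1 CPM. The factors Atf3, Jun and Sox11, induced by nerve injury, overlapped. Atf3 measured 1151, 1115 and 939.8 CPM against 1767, 1262 and 411 CPM, and Sox11 392, 208 and 364 CPM against 222, 294 and 230.4 CPM. Sprr1a, a growth-associated protein, was led by 1 baseline library, at 210.07, 97.1 and 0.603 CPM against 11632, 30.5 and 0 CPM. The member wholly below was Tnfrsf12a, the TWEAK receptor, at 109, 241 and 382 CPM against 918, 922 and 989 CPM (-1.95 ± 0.40; edgeR adjusted p = 0.196). With library sizes taken without the ribosomal entry, 2 members were wholly below.

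Of 21 axon cytoskeleton genes, all tested, 5 were wholly above, beside 7.3% of all tested genes. None was wholly below, beside 6.55%, and the median log2 fold change was 0.72. Tubb3 measured 2224, 2363 and 684 CPM against 238, 288 and 362 CPM (2.57 ± 0.63; edgeR adjusted p = 0.375). Tubb2b, another beta-tubulin, measured 163, 215 and 101.1 CPM against 48.2, 25.1 and 56.9 CPM, and Tubb2a lay apart in the same way, at 898, 509.8 and 336 CPM against 233, 229.7 and 137 CPM. Crmp1, a mediator of semaphorin signalling, measured 1266, 1016 and 1184 CPM against 542, 315 and 179.9 CPM (1.74 ± 0.49; edgeR adjusted p = 0.443). The abundant growth cone genes did not separate. Stmn3, a stathmin, measured 2629.97, 2460.5 and 1317 CPM against 2271, 2168 and 4285 CPM, and Gap43 2406, 1199.9 and 1063 CPM against 2898, 1483 and 2046 CPM.

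No gene of the stress response was called. Of 15 genes of the integrated stress response, which lowers translation and activates Atf4, 14 were tested, 2 were wholly below, 12 overlapped and the median log2 fold change was -0.70. Atf4 measured 93.5, 195 and 504 CPM against 785, 671 and 759.7 CPM (-1.48 ± 0.53; edgeR adjusted p = 0.582), and Chac1, its target that degrades glutathione, 280.04, 244 and 419 CPM against 707, 550.5 and 562 CPM. Ddit3, the factor CHOP, measured 201, 768 and 1792 CPM against 1276, 2198 and 3251 CPM and overlapped through replicate 3. Of 20 genes of axon degeneration and neuronal death, 16 were tested, 2 were wholly below, none was wholly above and 14 overlapped. Of all tested genes, 6.55% were wholly below, which also stands beside the integrated stress response count. Bcl2l11, the pro-apoptotic protein BIM, measured 2.28, 0.192 and 11.1 CPM against 20.9, 19.3 and 28.4 CPM (-2.33 ± 1.07; edgeR adjusted p = 0.629). Of 13 immediate early genes, 10 were tested, 2 were wholly above, beside 7.3% of all tested genes, and 8 overlapped. Junb measured 44.6, 112 and 72.8 CPM against 10.3, 26.6 and 6.91 CPM, and Arc 13.9, 71.2 and 43.1 CPM against 4.20, 5.25 and 10.95 CPM.

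Outside the interferon response, Camk2a was called higher, at 608, 379 and 234 CPM against 25.6, 8.93 and 7.64 CPM (4.86 ± 0.76; edgeR adjusted p = 0.0496). Rlim, a ubiquitin ligase, measured 510.4, 209.99 and 458 CPM against 50.6, 39.5 and 8.82 CPM (3.57 ± 0.70; edgeR adjusted p = 0.165). Ndrg2 measured 274, 242 and 373 CPM against 99.0, 67.7 and 44.6 CPM (2.07 ± 0.40; edgeR adjusted p = 0.165). Each of these 3 genes was separated from baseline in every library, and Rlim and Ndrg2 did not pass the test.

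Rpl5 was the gene called lower, at 161, 175 and 155 CPM against 651, 590.4 and 653 CPM (-1.95 ± 0.31; edgeR adjusted p = 0.0496). Both groups were tight, and ribosomal protein genes have many near-identical pseudogenes with which reads can be shared. The genes of next smallest p among the lower did not pass. Tpi1, the glycolytic enzyme triosephosphate isomerase, measured 1364, 1336 and 1145 CPM against 3373, 3327 and 2756 CPM (-1.30 ± 0.25; edgeR adjusted p = 0.165). Ypel3 measured 118, 154 and 182 CPM against 596, 377 and 901 CPM (-2.04 ± 0.38; edgeR adjusted p = 0.156). Nup43, a nuclear pore protein, had 0 counts in each treated library against 2.86, 11.96 and 29.9 CPM, at least 72.4-fold lower. Tln1, talin, measured 108, 98.4 and 108 CPM against 255, 219 and 378 CPM, and Rgs7bp, an anchor of RGS7, 31.6, 28.7 and 8.02 CPM against 428, 436 and 99.2 CPM. Krtcap2, Ppa2 and Srp14 were also wholly below without passing, with log2 fold changes of -1.82, -2.35 and -1.51.

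Set against the other retinal groups, with which it shares its 3 libraries, the knockout with IFNγ had no called gene. Against wild type with IFNγ, 0 of 13487 genes were called by edgeR (0%), with 668 at an unadjusted p under 0.05 and a smallest adjusted p of 0.856, while DESeq2 called 118 higher and 76 lower and limma-voom 3 higher. Against knockout with PBS, edgeR also called 0 (0%), with 879 at an unadjusted p under 0.05 and a smallest adjusted p of 0.0644, while DESeq2 called 205 higher and 85 lower and limma-voom 1 lower. A call in 1 comparison and none in another does not show that they differ. The intermediate groups also held interferon genes. Psmb9 measured 9.27, 11.3 and 3.89 CPM in wild type with IFNγ and 21.4, 47.2 and 18.9 CPM in the knockout with PBS. B2m measured 1585, 3460.07 and 1305 CPM in wild type with IFNγ and 1312, 2581 and 1132 CPM in the knockout with PBS, and both ranges overlapped that of the knockout with IFNγ. Irgm1 measured 5.62, 17.7 and 2.22 CPM in wild type with IFNγ and 60.5, 216 and 22.4 CPM in the knockout with PBS. For each of these genes the highest knockout with PBS value was that of replicate 2. That library held 4054 CPM of microglia and macrophage markers and 1587 CPM of MHC class II genes. Knockout with PBS replicates 1 and 3 held 61.8 and 15.6 CPM of class II genes. The part of microglia in these values was not tested. Camk2a measured 11.2, 86.1 and 67.8 CPM with IFNγ alone and 297, 174 and 222 CPM in the knockout alone. Rpl5 measured 411, 314 and 569.98 CPM with IFNγ alone and 246, 180.04 and 240.07 CPM in the knockout alone.

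A stricter count asks which genes had all 3 libraries labelled knockout with IFNγ above each of the other 9 retinal libraries. This held for 114 tested genes (0.845%), and 5 of these were among the 267 tested genes of the lists. They were Ifit2, Bst2 (tetherin, which holds budding viruses at the cell surface), Xaf1, Erap1 (an aminopeptidase that trims class I peptides) and Crmp1. The reverse held for 57 tested genes (0.423%), and 2 of these, Bcl2l11 and Cd68, were among the same 267 list genes. Ifit2 was separated from the other groups by a narrow margin, with 116 CPM in its lowest treated library and 114 CPM in the highest other library, a knockout with PBS. For Cd68 the margin was narrow too, with 20.1 CPM in its highest treated library and 20.6 CPM in knockout with PBS replicate 3.

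Markers of other retinal cells were measured beside these results. Of 18 microglia and macrophage markers, 5 were tested, and P2ry12, Trem2, Ptprc and Itgam had 0 counts in all 6 libraries. The list summed to 37.0, 51.3 and 65.3 CPM in the knockout with IFNγ and to 181, 166 and 208 CPM at baseline. The number of the 18 detected went the other way, with 10, 7 and 4 in the knockout with IFNγ and 3, 2 and 4 at baseline. Aif1, C1qa, C1qb, C1qc, Tyrobp, Lyz2, Adgre1, Fcer1g and Mrc1 had 0 counts in all 3 baseline libraries and counts in at least 1 treated library. The highest of these 9 were Mrc1, at 5.19 CPM in replicate 2, and Aif1, at 3.91 CPM in replicate 1. Most of the baseline sum was Cd68, a lysosomal protein of macrophages that was wholly below at 0, 20.1 and 17.1 CPM against 143, 112 and 197 CPM (-3.60 ± 1.17; edgeR adjusted p = 0.541). Among T and NK cell markers, 10 of 12 had 0 counts in all 6 libraries, including Cd4, Cd8a and Ifng. Müller glia and astrocyte markers were higher beside the interferon genes, with sums of 4543 (replicate 1), 1131 (replicate 2) and 2057.5 CPM (replicate 3) in the knockout with IFNγ and 881 to 1118 CPM at baseline. Of the 15 members 10 were tested, 9 of these were fitted higher with a median log2 fold change of 1.75, and 9 of the 10 overlapped baseline. Vim was wholly above at 30.2, 48.1 and 30.7 CPM against 6.20, 18.5 and 14.8 CPM, and most of the sum was Clu, clusterin, at 3790, 765 and 1761 CPM against 839, 1005 and 571 CPM. Slc1a3, Aqp4, Gfap, Sox9, Kcnj10 and Pax2 were at 0 in all 3 baseline libraries. In the knockout with IFNγ each was detected in 1 library, Sox9 at 22.05 CPM in replicate 2 (at least 32.3-fold higher in the group mean, against the floor per library), Gfap at 6.03 CPM in replicate 1, and the other 4 at most at 0.664 CPM. Rod markers summed to 129.7, 168 and 90.6 CPM in the knockout with IFNγ and to 53.2, 48.7 and 749.6 CPM at baseline, where wild-type replicate 3 was highest. Amacrine and bipolar markers overlapped in sum, and no member of either list was wholly above or below. The knockout with PBS replicate 2 held 4054 CPM of microglia markers, against 37.0 to 208 CPM in the other 11 libraries. It belongs to neither compared group but entered the low-count filter, the scaling and the shared estimate of spread. Without it 14690 genes were tested, 3 were called higher (Oasl2, Gbp6 and Psmb9) and none lower. The part of these cells in the results was not tested.

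**Figure D5:**
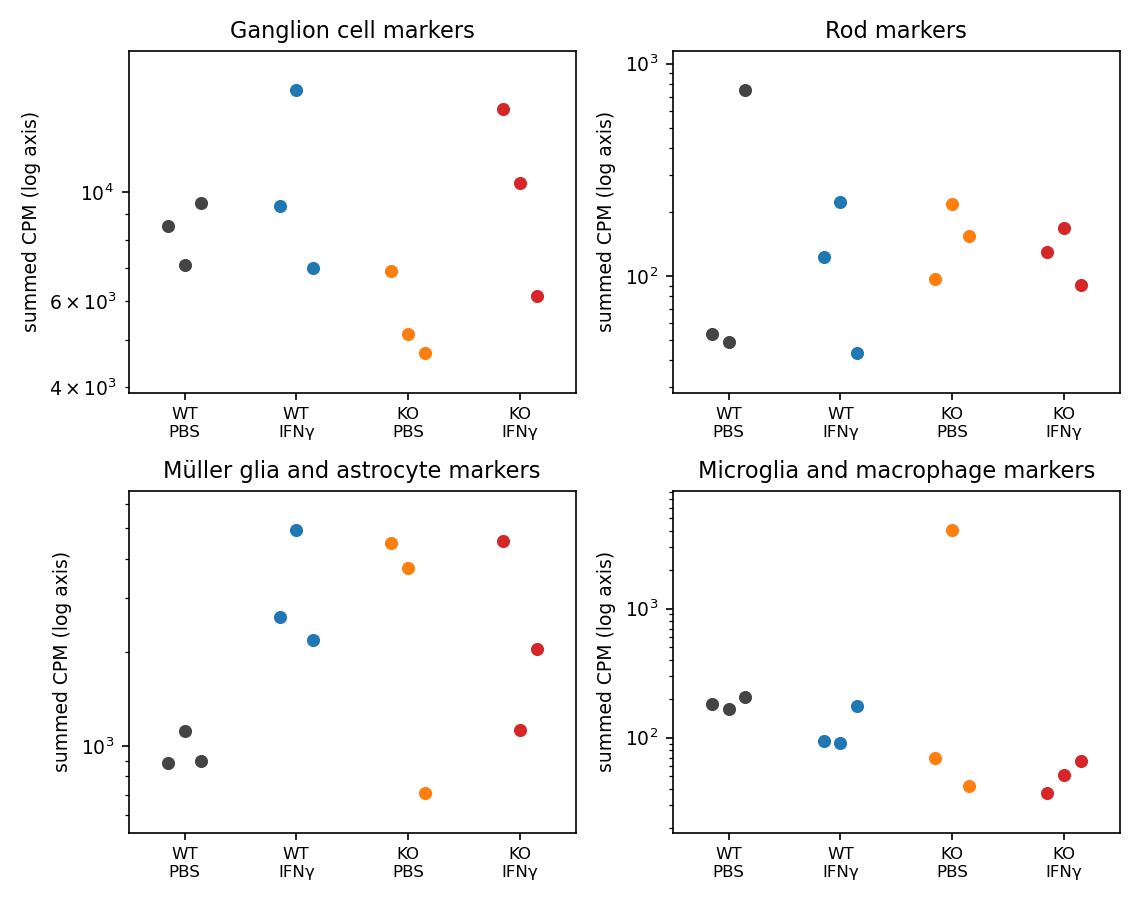
Summed CPM (logarithmic vertical axis) of 4 marker lists in each of the 12 retinal libraries, by group; WT is wild type and KO labelled knockout. Ganglion cell sums overlap between KO IFNγ and WT PBS, WT PBS replicate 3 is highest in rod markers at 749.6 CPM, and KO PBS replicate 2 is highest in microglia markers at 4054 CPM.

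Markers of ganglion cell subtypes showed no common direction. Of 20, 15 were tested, 1 was wholly above (Cartpt) and 1 wholly below (Calb2), beside 7.3% and 6.55% of all tested genes. Cartpt, a peptide of direction-selective ganglion cells, measured 326, 478 and 388 CPM against 273, 119 and 319 CPM (0.74 ± 0.89; edgeR adjusted p = 0.971), and with library sizes taken without the ribosomal entry it was no longer wholly above. Calb2, calretinin, measured 128, 187 and 195 CPM against 440.5, 389.7 and 414 CPM (-1.29 ± 0.45; edgeR adjusted p = 0.581). Spp1, osteopontin of alpha ganglion cells, varied widely within groups, at 0.815, 38.2 and 0.241 CPM against 1394, 893 and 0 CPM.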

How the data were processed

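Counts per gene symbol of 12 retinal libraries were used as deposited by the authors; the submitters' processing notes name Trim Galore, STAR and the build GRCm38 (mm10). The sources used here do not give tool versions, the counting program or the retinal annotation. A last line without a gene name, which held each of the 12 column sums and so 50% of the file total, was dropped. Lengths and positions came from the ganglion table.

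All 12 libraries in 4 groups were fitted with edgeR's robust quasi-likelihood test (version 4.0.16, R 4.3.3) after TMM scaling and filterByExpr, with a minimum count of 10 and total of 15, with Benjamini-Hochberg adjustment over 13487 genes. The code was tested on simulated data. Alternatives used DESeq2 1.42.0, limma 3.58.1, other scalings and filters, and each library left out.

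Named genes were Ptpn2, Gbp6, Psmb9, Ifit2, up to 15 called genes per direction with at least 5 CPM, where fewer passed the smallest p up to 10, and in each list at most 5 called members, or the 2 of highest level; other list members were chosen after their values were seen. The 30 lists and the comparison were chosen with earlier results of these data known. Same-numbered replicates did not deviate together (correlations -0.011, 0.005 and -0.024). SE is the fitted change over the square root of F.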

Additional observations from a re-analysis of the deposited data

How the results depend on the processing

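The counts of called genes moved with most settings. Against wild type with PBS, 6 genes were higher and 1 lower as reported. No filter on low counts gave 8 higher and 4 lower, without Oasl2 and B2m, detection in all 3 libraries of a group 1 higher and 0 lower, a covariate for detected genes 3 and 0, the compared groups alone 0 and 0, DESeq2 250 and 103, and limma-voom with sample quality weights 14 and 5. With the replicate number as a block, the replicate block fit gave 1 higher, B2m, and 0 lower; the numbers do not pair the samples, and no replicate matched its own number best. Leaving out 1 library gave 0 to 5 higher and 0 lower, and without knockout with PBS replicate 2, chosen after seeing the data, 3 and 0. DESeq2 size factors (5 and 1) and library sizes without the ribosomal entry (6 and 1) stayed close.

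Against wild type with IFNγ (0 and 0), DESeq2 called 118 higher and 76 lower and limma-voom 3 higher. Against knockout with PBS (0 and 0), DESeq2 called 205 and 85, limma-voom 1 lower, no filter on low counts 2 higher, and leaving out 1 library 0 to 3 higher.

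Ptpn2 changed sign under limma-voom, to -2.14. The cause of these changes was not tested. Of the other named genes, those called, of smallest p, or wholly above or below baseline were refitted, and all of these kept their direction. Named genes in none of these groups were not refitted. Each of the 5 called interferon genes was called in 6 to 10 of 16 alternatives. Of tested genes, 35.9% were at 0 counts in at least 1 of the 6 libraries, and a count of 0 allows a level up to the floor of 3 counts. The counts of detected genes and of genes wholly above or below used no such floor.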

Other observations

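Rpl5 was the only gene called lower, and the other ribosomal protein genes, a group put together after its values were seen, were read beside it with no test. Of 82 tested cytosolic ribosomal protein genes, 29, Rpl5 among them, were wholly below baseline and none was wholly above. Beside these counts, 6.55% of all tested genes were wholly below and 7.3% wholly above. Of the 82 genes, 80 had a negative fitted change, with a median log2 fold change of -0.82. Their summed level was 11001, 13209 and 11369 CPM in the libraries labelled knockout with IFNγ and 16292, 14642 and 28398 CPM in wild type with PBS. In wild type with IFNγ the sum was 12581, 13322 and 14925 CPM, and in the knockout with PBS it was 12961, 10565 and 13701 CPM. The highest sum was that of wild type with PBS replicate 3.

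Of 17 tested genes of glycolysis, also grouped after Tpi1 was seen, 5 were wholly below (Tpi1, Ldhb, Aldoa, Pfkl and Aldoc) and 1, Pfkm, was wholly above. The shares over all tested genes were 6.55% and 7.3%. Their summed level was 24211, 24563 and 18357 CPM in the libraries labelled knockout with IFNγ and 33300, 27575 and 23919 CPM in wild type with PBS, which overlap.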
